A study of Mus musculus with 20 samples.

Results

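The genes described here are 7 of polyamine metabolism, taken from 54532 genes counted by RNA-seq in mouse plantaris muscle. They were chosen by name, around Smox, which had been selected on its lower level after mechanical overload (MOV) in these same libraries. The other 6 members were added as the synthesis, breakdown and regulatory genes of the same pathway, to ask whether both sides of the pathway move together. All 7 were found in the count tables, and all 7 passed the filter on low counts in each comparison. Because the fall of Smox after MOV was what chose the set, its values after MOV are a description without a test.

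The plantaris, a calf muscle, came from male C57BL/6J mice aged 5 months. It was taken 10 days after surgery, either a sham operation or MOV, which removes a portion of the gastrocnemius and soleus on both sides and leaves the plantaris to carry the load. There were 5 mice per surgery. Every mouse had received a lentivirus with scrambled control in the left plantaris and a lentivirus for a miR-1 mimic in the right one, at 50 µL each, both under a mouse CMV promoter and with TurboGFP as reporter. The 4 groups of 5 libraries are called sham control and MOV control for the left muscles, and sham mimic and MOV mimic for the right ones. No group was free of virus and injection, not every fibre carried the reporter, and the CMV promoter is not restricted to fibres. RNA was from whole muscle, so that fewer cells of a type and less RNA per cell cannot be told apart. Gene counts do not measure mature miR-1, so the mimic itself was not checked in these libraries.

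Putrescine, spermidine and spermine are small positively charged molecules that bind RNA and are needed for growth, and spermidine is also the donor for the hypusine of the translation factor eIF5A. Ornithine decarboxylase (Odc1) makes putrescine, S-adenosylmethionine decarboxylase (Amd1) makes the aminopropyl donor, and the synthases Srm and Sms use that donor to make spermidine and then spermine. Spermine oxidase (Smox) turns spermine back into spermidine, and spermidine/spermine acetyltransferase (Sat1) acetylates both for export or oxidation. Antizyme inhibitor (Azin1) resembles Odc1 without its activity and frees it from antizyme, the protein that sends Odc1 to the proteasome. Much of the control of Odc1, Amd1 and Sat1 is known to lie in translation and protein turnover, which RNA counts do not show.

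Promoters are shown because Smox and Amd1, which varied together most closely in these libraries, did not share the sequence found just before their starts. RefSeq sequences of build GRCm38.p6 were given for 6 starts of 5 members, with Sms at 2 of them, while Srm and Azin1 were without an entry. The bases 40 to 11 before the start are printed 5′ to 3′ on the strand of the gene, with a searched motif in capitals where it lies whole within these bases. For Odc1 and for Sms start 2 the printed bases lie inside the span of the gene given below, downstream of its 5′ end.
Smox, GC box, chr2:131491822-131491851, plus strand: gctccCCGCCCccggtGGGCGGgcccgggg
Amd1, TATA box, chr10:40302199-40302228, minus strand: gggaggatgcTTATATAAggtctgcgctca
Odc1, no whole motif, chr12:17544833-17544862, plus strand: acccgggttggccgccacggagtccccgcc
Sat1, no motif, chrX:155216460-155216489, minus strand: agagagcccggaagagggcagtgtctggaa
Sms start 1, no motif, chrX:157492298-157492327, minus strand: cgctgagccgtttaaagctgggtgacctcc
Sms start 2, no motif, chrX:157491379-157491408, minus strand: ttagctcgttcgaggcacggcgggcgaggc

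The searched letters, on both strands of the 250 bases before each start, were TATAAA or TATATAA for the TATA box, GGGCGG for the GC box, CACGTG for the E-box bound by Myc and Max, and CCAAT. These were held by 13.8%, 32.7%, 6.02% and 33.8% of 32851 promoters, respectively. Smox had 6 GC boxes and no TATA box, while Amd1 had the TATA run, which reads the same on both strands, and 1 GC box. Odc1 had 4 GC boxes, of which the nearest begins 15 bases before the start and runs past the end of the printed bases, Sat1 had 2 and Sms start 2 had 4. Sms start 1 had the only CCAAT and the only E-box among these 6, and the E-box is shown with capitals in the bases 208 to 179 before that start.
Sms start 1, E-box, chrX:157492466-157492495, minus strand: cccagcggggttCACGTGcatttaaagaaa
A match is a description of the letters and says nothing of a factor's binding.

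On GRCm38.p6, Odc1 (ENSMUSG00000011179) lies on chromosome 12 from 17544808 to 17551502, Amd1 (ENSMUSG00000075232) on chromosome 10 from 40287458 to 40302188, Srm (ENSMUSG00000006442) on chromosome 4 from 148591513 to 148594619 and Sms (ENSMUSG00000071708) on chromosome X from 157443851 to 157492287. Smox (ENSMUSG00000027333) lies on chromosome 2 from 131491858 to 131525183, Sat1 (ENSMUSG00000025283) on chromosome X from 155213126 to 155216449 and Azin1 (ENSMUSG00000037458) on chromosome 15 from 38487430 to 38519294. Each count covers the exons of the whole gene. Odc1 overlaps Gm22748, Smox overlaps Gm30679 and Azin1 overlaps Mir6951, and without a stated strand setting reads from such neighbours cannot be told apart.

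Library totals were between 12036360 and 23056525 counts, and the lowest count of any member in any library was 65, for Srm. Levels are in CPM, the count of a gene relative to the library total, after TMM scaling over the 20 libraries. Whole-muscle identity was seen in the fibre markers, whose 8 genes summed to 72600 to 193000 CPM, with none of the markers at 0 in any library. The summed fibre markers had medians of 136000 and 143000 CPM in sham control and sham mimic against 107000 and 108000 CPM in MOV control and MOV mimic. Of these, the fast myosin Myh4 had medians of 36800 CPM in sham control and 11900 CPM in MOV control, while Acta1, Myh2 and Myh1 had a log2FC of 0.07, 0.11 and 0.84 there. The remaining fibre markers Atp2a1, Tnnt3, Ckm and Pvalb had -0.54, -0.45, -0.45 and -0.19. The 3 satellite cell and myoblast markers summed to a median of 45.1 and 41.7 CPM in sham and 65.4 and 68.5 CPM in MOV, in the same order. The 3 endothelial markers summed to medians of 242 and 243 CPM in sham against 162 and 168 CPM in MOV, and sham mimic (225 to 315 CPM) and MOV mimic (164 to 180 CPM) did not overlap. The 8 leukocyte markers summed to 198 to 882 CPM, with medians in MOV of 566 CPM for the control virus and 612 CPM for the mimic, and among them Ptprc and Itgam had a log2FC of 1.09 (SE 0.39) and 1.18 (SE 0.42) for the mimic in MOV, each with an adjusted p of 0.999 in edgeR. The part of these shifts in the results was not tested. The libraries of a group were not uniform. Sham control 1 and sham mimic 1 had fibroblast markers at 859 and 1240 CPM, against group medians of 5950 and 6370 CPM, and leukocyte markers at 200 and 198 CPM, against medians of 693 and 561 CPM. These were also the libraries with the highest Smox and Amd1 of their groups, and sham control 1 had the lowest Azin1. MOV control 4 and 5 had fibroblast markers at 3450 and 2280 CPM, against a median of 7500 CPM, and leukocyte markers at 215 and 219 CPM, against a median of 566 CPM.

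Divided by exon length, in sham control, Amd1 had the highest level at 201 ± 120 CPM per kb (SD, n = 5), followed by Odc1 at 64.2 ± 14.1, Smox at 51.9 ± 24.3, Sms at 24.4 ± 3.57, Sat1 at 16 ± 5.62, Azin1 at 11.2 ± 1.81 and Srm at 8.61 ± 3.09 CPM per kb. The means of Odc1 and Smox, Sat1 and Azin1, and Azin1 and Srm differed by less than the larger SD of the pair. The libraries of each gene overlapped those of the next in this order. In MOV control the order began with Odc1 at 63.2 ± 9.93 and Amd1 at 50 ± 21.3 CPM per kb, which overlapped, and Smox at 13.1 ± 3.30 came after Sms, Azin1 and Sat1 by its mean, with libraries that overlapped those of Azin1 and Sat1. Exon lengths were from an older annotation, GENCODE vM1, so that they are approximate for the transcripts of this muscle.

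**Figure D1:**
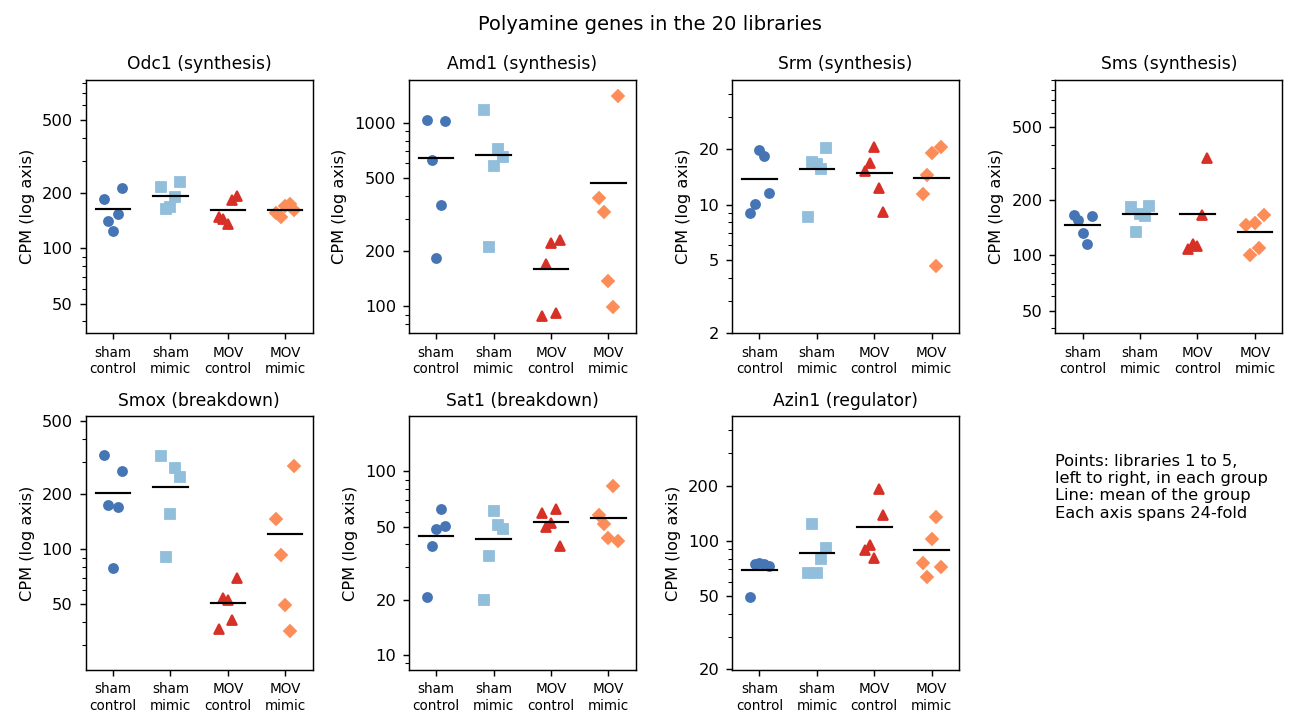
CPM of each of the 7 genes (log axis, each spanning 24-fold) in the 20 libraries, with points for libraries 1 to 5 from left to right in each group and a line at the group mean. Odc1 stays between 125 and 229 CPM throughout, while Amd1 and Smox are spread widely in sham control, sham mimic and MOV mimic and are low in all 5 MOV control libraries.

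The first comparison was MOV against sham in the muscles with control virus. The breakdown gene Smox was lower in MOV control, and the synthesis gene Amd1 was about as much lower, while Odc1, Srm, Sms and Sat1 had estimates near 0. Azin1 was the member with a higher estimate. By edgeR 0 of the 6 members tested passed, where 1 of 14974 genes (0.00668%) passed. DESeq2, the tool of the study, called 1 of 6 lower (Amd1) and 1 of 6 higher (Azin1), where it called 3.48% of all genes lower and 2.62% higher.

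Smox was at 324, 173, 79.3, 170 and 265 CPM in sham control and at 36.7, 54.4, 52.6, 41.1 and 69.6 CPM in MOV control. The highest MOV control library lay below the lowest sham control library, so the groups did not overlap. The log2FC was -1.96 with an SE of 0.32 and a 95% interval of -2.65 to -1.27, or 3.90-fold lower. This difference is what Smox was chosen for, and non-overlap with lower values in MOV was found for 2.93% of all genes tested.

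Amd1 was at 1030, 630, 184, 357 and 1020 CPM in sham control and at 88.2, 171, 222, 91.4 and 229 CPM in MOV control. The groups overlapped through sham control 3, the library that was also lowest for Smox. The log2FC was -1.98 with an SE of 0.45 and an interval of -2.95 to -1.01, or 3.94-fold lower, with an adjusted p of 0.063 in edgeR and 0.0056 in DESeq2. With 1 library left out, the adjusted p in edgeR ran from 0.022 without sham control 3 to 0.156 without sham control 5. Amd1 was called without sham control 3 or MOV control 5, where 426 and 318 genes were called in all, and in no other such fit. Amd2, an intronless copy of Amd1 that can share its reads, had 0.273% to 2.59% of the CPM of Amd1 and a log2FC of -2.09 (SE 0.40, adjusted p = 0.0554 in edgeR and 7.93e-05 in DESeq2). Its highest MOV control library, at 2.29 CPM, lay below its lowest sham control library, at 2.80 CPM.

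Azin1 was at 49.5, 74.6, 75.9, 75.1 and 73.1 CPM in sham control and at 89.5, 94.7, 80.8, 191 and 138 CPM in MOV control. All 5 MOV control libraries were above all 5 sham control libraries, as for 1.94% of the genes tested. The log2FC was 0.81 with an SE of 0.22 and an interval of 0.33 to 1.28, and the adjusted p was 0.0891 in edgeR and 0.0232 in DESeq2. The highest values, 191 and 138 CPM, were those of MOV control 4 and 5, the libraries with low fibroblast and leukocyte markers, and the log2FC was 0.56 (adjusted p = 0.199 in edgeR) without the former and 0.76 (adjusted p = 0.0919) without the latter.

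Odc1, whose product Azin1 protects, was at 185, 140, 125, 153 and 214 CPM in sham control and at 149, 145, 135, 183 and 192 CPM in MOV control. The values of both groups ran over the same range. Its log2FC was 0.01 (SE 0.16, interval -0.34 to 0.37), the narrowest interval of the 7.

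The remaining members showed wider intervals. Srm had a log2FC of 0.15 (interval -0.43 to 0.73), from levels of 9.05 to 19.8 CPM in sham control and 9.09 to 20.6 CPM in MOV control. Sms had 0.22 (interval -0.38 to 0.83), and its estimate turned to -0.17 without MOV control 5, where Sms was at 339 CPM against 108 to 167 CPM in the other 4 libraries. Sat1, the other breakdown gene, had 0.30 (interval -0.22 to 0.81), from 20.7 to 62.5 CPM in sham control and 39.2 to 62.6 CPM in MOV control. The intervals of Odc1, Srm, Sms and Sat1 all included 0, so that no direction can be read for them.

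Within a library, Odc1 was higher relative to Smox after MOV. The ratio of Odc1 to Smox CPM ran from 0.570 to 1.58 in sham control, with a median of 0.811, and from 2.57 to 4.46 in MOV control, with a median of 2.76. Since Odc1 hardly differed, this ratio restates the value of Smox. The ratio of Amd1 to Smox had medians of 3.19 in sham control and 3.13 in MOV control.

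**Figure D2:**
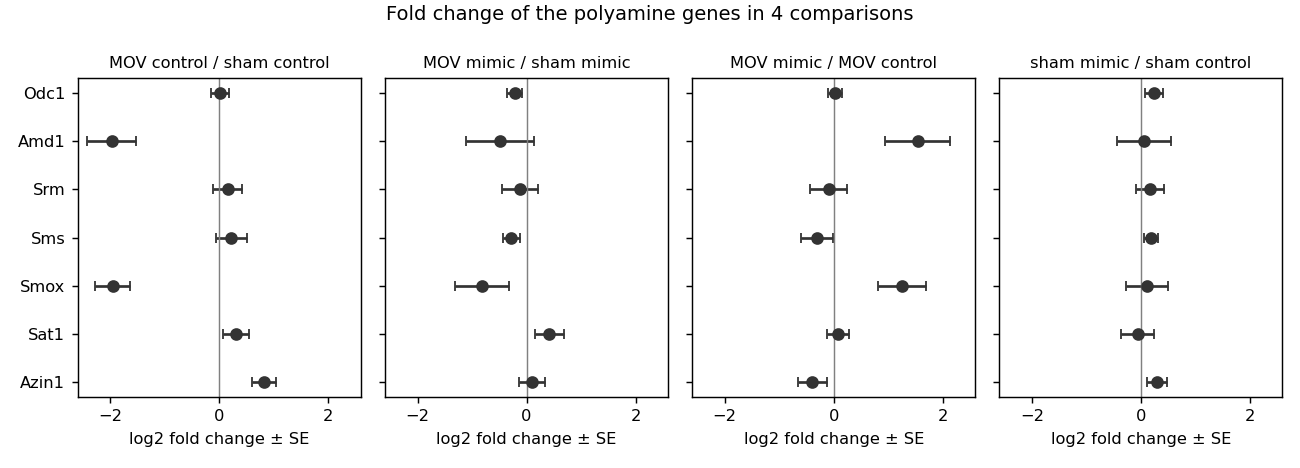
log2FC with its SE for the 7 genes, fitted by edgeR, for MOV against sham with each virus and for mimic against control virus in each surgery. In the control-virus overload panel Amd1 and Smox lie near -2 while Odc1 lies at 0.01. In the panel of sham mimic against sham control the 7 estimates lie between -0.06 and 0.30.

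The second comparison was MOV against sham in the mimic-virus muscles of the same mice, which is not an independent repeat of the first. All 7 members overlapped between the groups. By edgeR 0 of 6 passed, with 0% of 14918 genes passing (0 genes, and 1997 at an unadjusted p under 0.05). DESeq2 called 0 of 6 as well, where it called 0.845% of all genes higher and 0.65% lower. Non-overlapping libraries were found for 0.811% of genes with higher and 2.03% with lower values in MOV.

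Smox was at 323, 90.8, 155, 277 and 247 CPM in sham mimic and at 145, 93.3, 49.5, 35.9 and 284 CPM in MOV mimic. MOV mimic 5 was as high as the upper sham libraries, and MOV mimic 3 and 4 were as low as MOV control. The log2FC was -0.82 (SE 0.50, interval -1.91 to 0.27), and it ran from -1.40 without MOV mimic 5 to -0.58 without MOV mimic 4.

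Amd1 followed the same libraries, at 1180, 210, 582, 722 and 652 CPM in sham mimic and 390, 328, 138, 99.2 and 1390 CPM in MOV mimic. Its log2FC of -0.49 (SE 0.63, interval -1.85 to 0.86) had an adjusted p of 0.762 in edgeR. Without MOV mimic 5, in which Amd1 was at its highest of all 20 libraries, the log2FC was -1.46 with an adjusted p of 0.124, while it was -0.17 without sham mimic 1 and -0.23 without MOV mimic 4.

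Odc1 had a log2FC of -0.22 (interval -0.51 to 0.07), from 163 to 229 CPM in sham mimic and 148 to 174 CPM in MOV mimic. Azin1 had 0.10 (interval -0.40 to 0.60), with 66.6 to 124 CPM in sham mimic and 63.5 to 135 CPM in MOV mimic. The estimates of Srm, Sms and Sat1 were -0.12, -0.28 and 0.42, and the adjusted p of the 6 tested members in edgeR ran from 0.467 to 0.903.

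The mimic was compared with the control virus within each surgery. The study asked whether the fall of miR-1 under load is needed for muscle growth. By qPCR it found a smaller fall of miR-1 with the mimic in MOV, and no rise with the mimic in sham. In MOV, Amd1 and Smox had higher estimates with the mimic. Smox is given as a description in both comparisons, since each uses libraries of a comparison of MOV with sham. Which of these comparisons Smox had been chosen on was not stated, so both count as used for the choice. By edgeR 0 of the other 6 members passed in MOV, with 0% of 15220 genes passing (641 at an unadjusted p under 0.05, and 3 called by DESeq2). The study reported more differing genes than that for this comparison from its own DESeq2 fit, and the source of the gap was not tested. No member separated the groups, where 0.355% of genes did so with higher and 0.401% with lower values in MOV mimic.

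For Smox the log2FC of MOV mimic against MOV control was 1.26 (SE 0.44, interval 0.30 to 2.22), and for Amd1 it was 1.54 (SE 0.59, interval 0.27 to 2.82, adjusted p = 0.999 in edgeR). MOV mimic 5 carried much of both values, which were 0.68 for Smox and 0.58 for Amd1 without it. Odc1 had a log2FC of 0.02 (interval -0.27 to 0.30), and Azin1 had -0.39 (interval -0.96 to 0.17). The estimates of Srm, Sms and Sat1 were -0.09, -0.31 and 0.08.

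In sham muscle, by edgeR 0 of the 6 members other than Smox passed between mimic and control virus, with 0% of 14746 genes passing (254 at an unadjusted p under 0.05). All 7 overlapped, where 0.122% of genes did not overlap with higher and 0.237% with lower values in sham mimic. Smox had a log2FC of 0.11 (interval -0.73 to 0.95) and Amd1 had 0.06 (interval -1.01 to 1.12), so that differences of either sign lay within both intervals. Odc1 had 0.24 (interval -0.12 to 0.60), Azin1 had 0.30 (interval -0.09 to 0.70), and Srm, Sms and Sat1 had 0.17, 0.19 and -0.06.

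Whether the difference between the viruses differed between the surgeries was tested as an interaction over all 20 libraries. The estimates were 1.46 for Amd1 (SE 0.83), -0.70 for Azin1 (SE 0.34), -0.51 for Sms (SE 0.34) and -0.24 for Odc1 (SE 0.21), each with an adjusted p of 1 in edgeR. For Smox the estimate was 1.13 (SE 0.63), given as a description. Without MOV mimic 5 the estimates were 0.52 for Amd1 and 0.56 for Smox. By edgeR 0% of 16166 genes passed (426 at an unadjusted p under 0.05, and 1 called by DESeq2).

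Smox and Amd1 moved together from library to library, also inside the groups. The ratio of their CPM stayed between 2.10 and 4.88 in the 20 libraries, a 2.32-fold range, while Smox alone ranged 9.03-fold and Amd1 15.7-fold. Pearson's r of their log2 CPM was 0.969 over 20 libraries, 0.961 after the mean of each group was subtracted, 0.951 in the 10 sham libraries and 0.969 in the 10 MOV libraries, the last 2 also with group means subtracted. It was 0.970 without MOV mimic 5. The points share scaling factors and, between left and right muscles, mice, so that these are descriptions.

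**Figure D3:**
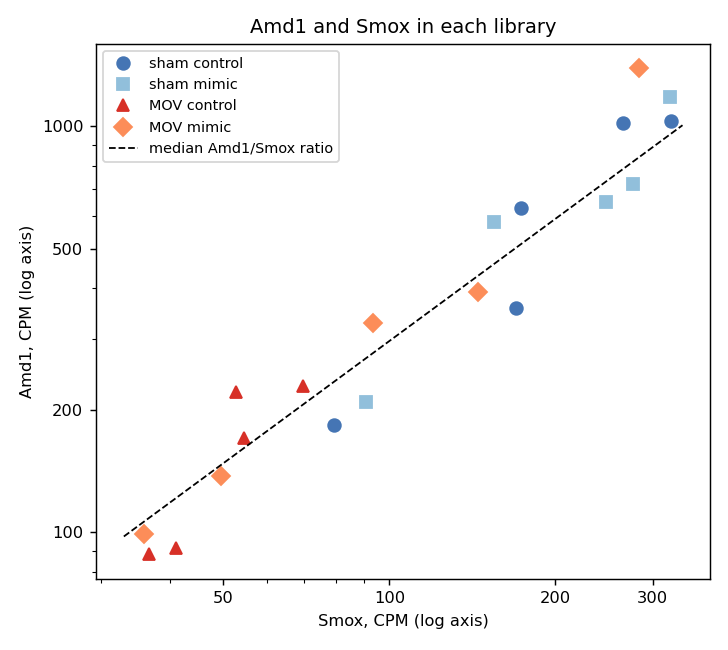
CPM of Amd1 against CPM of Smox (log axes) in the 20 libraries, with the shape and color of a point giving its group and the dashed line the median ratio of 2.96. All groups lie along the line, with the MOV control libraries at its lower end and MOV mimic 5 at its upper end.

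Among 10328 genes compared with it, Amd1 was the gene most like Smox, both as measured and with group means subtracted. The next in the latter order were Gcc2 (r = 0.940), Pip5k1a (0.905), Cyp27a1 (0.904) and Ccdc85c (0.903), and as measured they were Smtnl2 (0.947), Ccdc85c (0.943), Cd24a (0.939) and Txnip (0.939). For Amd1, with group means subtracted, the next after Smox were Gpcpd1 (0.946), Adi1 (0.945), Cd24a (0.941) and Vldlr (0.940). Adi1, the acireductone dioxygenase of methionine salvage, acts several steps after the methylthioadenosine that spermidine and spermine synthesis releases. Odc1 had other neighbors, namely Stim2 (0.885), Pdk4 (0.809), Camsap1 (0.791), A530098C11Rik (0.787) and Ung (0.774).

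The other members had lower values. With group means subtracted, r with Smox was 0.402 for Odc1, 0.440 for Sms, 0.0409 for Srm, -0.436 for Sat1 and -0.540 for Azin1. Against Amd1 the values were 0.339, 0.423, 0.0234, -0.459 and -0.600 in the same order. The pair of Odc1 and Sms had 0.586. Among the 4 synthesis genes Amd1 was thus closer to Smox, a breakdown gene, than to Odc1, Srm or Sms, and Smox and Sat1 had an r below 0.

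Each library was also placed on an axis by all genes with a mean of at least 5 CPM other than the 7 members, with 0 at the mean of sham control and 1 at the mean of MOV control. The sham control libraries ran from -0.621 to 0.536 and the MOV control libraries from 0.591 to 1.29. Sham control 3, the one with low Smox and Amd1, stood at 0.536, and MOV mimic 5, with both high, stood at 0.106 against 0.832 to 1.25 for the other 4 of its group. The library labelled MOV mimic 5 was thus nearer to sham control than the rest of its group in other genes also.

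Over the 10 mimic-virus libraries, which did not set the axis, r with this position was -0.855 for Smox, -0.858 for Amd1, -0.762 for Sms, -0.524 for Odc1 and -0.283 for Srm. It was 0.708 for Sat1 and 0.553 for Azin1. The 10 libraries include both surgeries, so that the values hold the difference between sham and MOV as well as the spread within them. These muscles came from the same mice as the libraries that set the axis. Smox was chosen on its fall after MOV, so its value here is a description and no separate evidence. Amd1 varied closely with Smox.

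**Figure D4:**
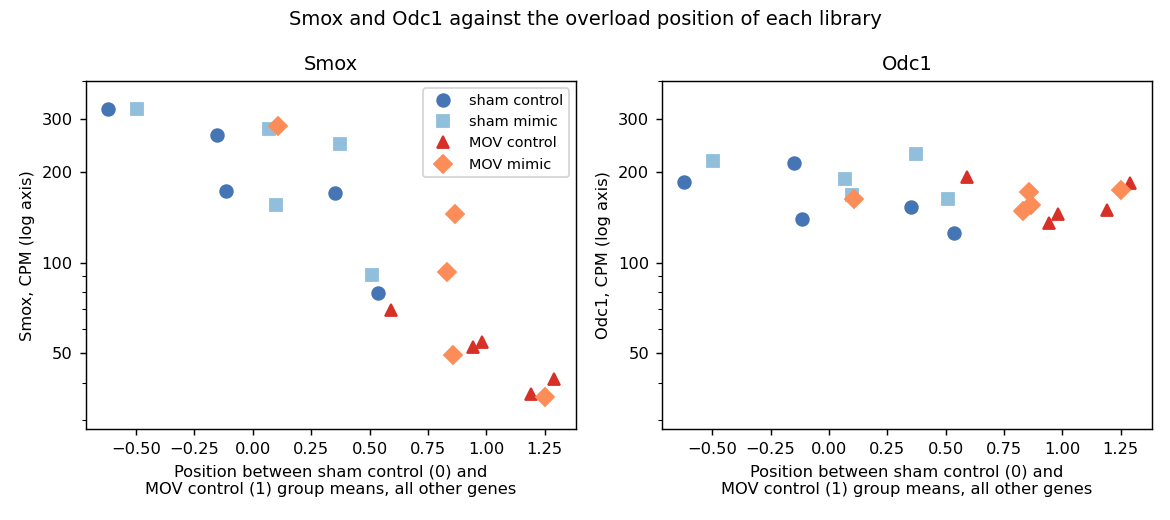
CPM of Smox and Odc1 (log axes) against the position of each library between the sham control mean (0) and the MOV control mean (1), computed from other genes. Smox runs from 324 CPM at the lowest position to 35.9 CPM near the highest, while Odc1 stays between 125 and 229 CPM.

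Of 39 further pathway genes listed, all of which were in the tables, 32 were tested in the control-virus muscles. By edgeR 0 of 32 passed after MOV in control-virus muscles, with a median log2FC of 0.07 against 0.04 over all genes, and 0 of 31 in mimic-virus muscles, with a median of 0.05 against 0.017. The same count was 0 of 31 for each mimic comparison. DESeq2 called 2 of the 32 higher and 1 lower in control-virus muscles, where it called 2.62% of all genes higher and 3.48% lower, and none of the listed genes in the other comparisons.

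The genes that DESeq2 called higher were Cdkn1a and Gatm. Cdkn1a, the cell cycle inhibitor p21, had medians of 26.1 CPM in sham control and 98.8 CPM in MOV control, with a log2FC of 1.61 (SE 0.36, adjusted p = 0.063 in edgeR and 0.000787 in DESeq2). Gatm, which uses arginine for creatine synthesis, had a log2FC of 0.73 (SE 0.21, adjusted p = 0.11 in edgeR and 0.043 in DESeq2). The gene it called lower was Adi1, at -0.83 (SE 0.22, adjusted p = 0.0829 in edgeR and 0.0141 in DESeq2). In mimic-virus muscles the log2FC of Cdkn1a, Gatm and Adi1 were 0.76, 0.98 and -0.36.

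By function, the 8 genes of S-adenosylmethionine and methylthioadenosine had a median log2FC of 0.00 in control-virus muscles, the 4 genes of eIF5A hypusination 0.04, the 6 tested transport genes -0.10 and the 4 tested genes of ornithine and arginine supply 0.36, with values from -0.50 to 0.73. The antizymes Oaz1 and Oaz2, which target Odc1 for degradation, had 0.26 (SE 0.14) and 0.13 (SE 0.13). Oaz1 was at 448 ± 41.2 CPM in sham control and 523 ± 93.1 CPM in MOV control (SD, n = 5). Paox, the peroxisomal oxidase that acts on acetylated polyamines, was at 6.60 to 8.55 CPM in sham control and 4.55 to 8.29 CPM in MOV control, with a log2FC of -0.17 (SE 0.19). Azin2, a second antizyme inhibitor, was at 2.87 to 7.37 CPM in sham control and 3.49 to 8.47 CPM in MOV control, with a log2FC of 0.31 (SE 0.30).

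**Figure D5:**
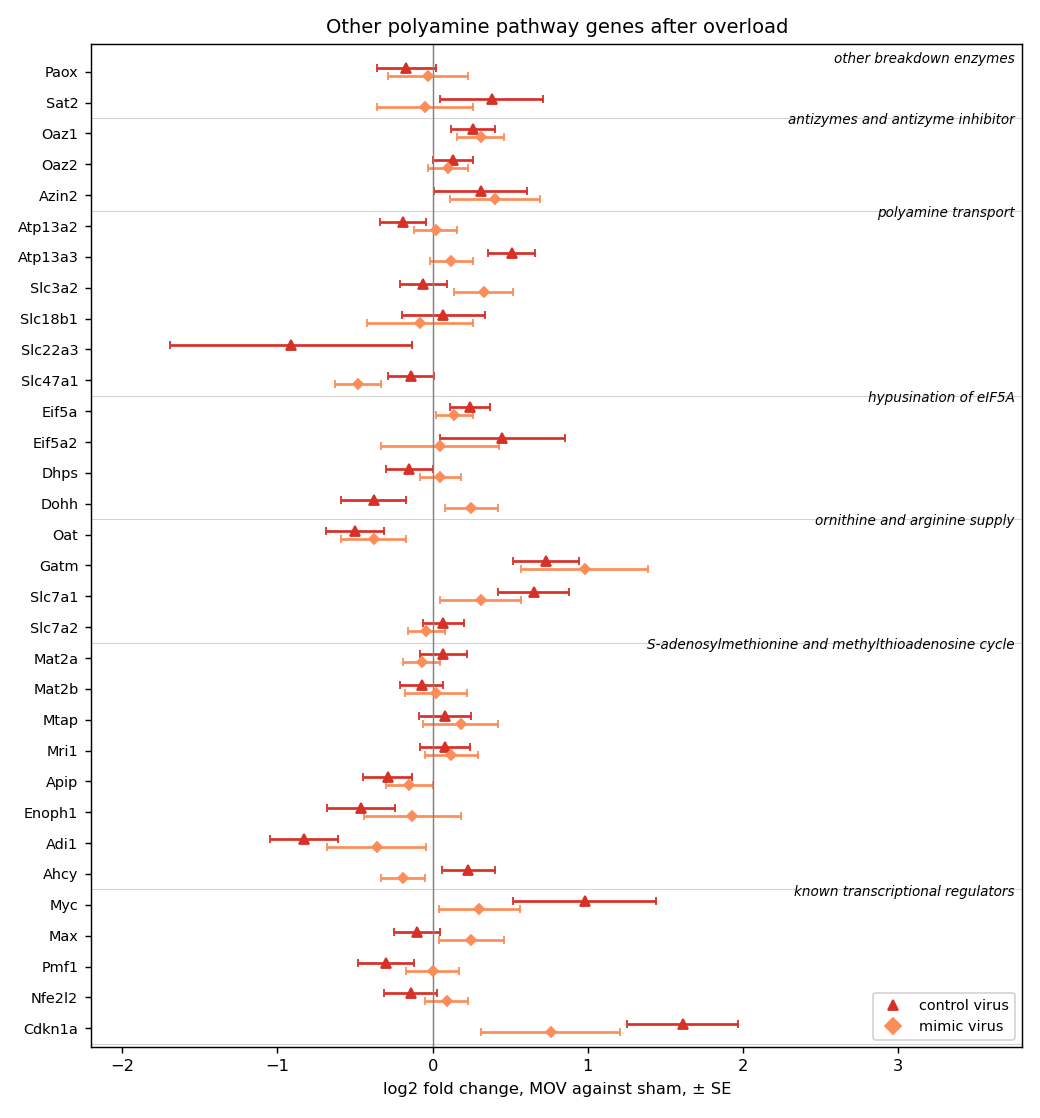
log2FC of MOV against sham with its SE for the further pathway genes tested, in control-virus muscles (triangles) and mimic-virus muscles (diamonds), grouped by function. Most points lie near 0, with Cdkn1a at 1.61 the highest in control-virus muscles and Gatm at 0.98 the highest in mimic-virus muscles.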

How the data were processed

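RNA-seq was carried out on whole plantaris muscles, in 20 libraries of 4 groups. Values were raw counts per Ensembl gene as the authors deposited them, without normalization, in one table for the control virus and one for the mimic. Their methods and the submitters' processing notes give FastQC 0.11.9, cutadapt 4.4, Trim Galore 0.6.10, HISAT2 2.0.5 on GRCm38, featureCounts 1.5.0-p3 and DESeq2 1.34.0. How strand and multi-mapped reads were treated, and which annotation release was used, is not given in the sources used here. Symbols were matched for 32640 of 54532 genes. Replicates were taken from the labels, which name 5 libraries a group; total counts per library had a median of 16940547.5 and limit the precision through counting error only.

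Counts were tested with the quasi-likelihood test of edgeR 4.0.16 in R 4.3.3, with TMM and filterByExpr, on the 10 libraries compared (20 for the interaction), two-sided, with Benjamini-Hochberg adjustment over all genes tested and a threshold of 0.05. The left and right muscles of a mouse were treated as unpaired, since the labels do not say that equal numbers are the same mouse. Alternatives were DESeq2 1.42.0 and its size factors, library totals, no filter, all 20 libraries in the fit, the replicate number as a block and each library left out. log2 CPM used a prior count of 2. The fits were tested on simulated data. Libraries of a group differed by a chi-square per gene of 13.9 to 168 over 40 pairs, so none was a copy of another.

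The members and gene lists were chosen with earlier results of these data known. Named were the 7 members, pathway genes called by a test, up to 3 in each direction (edgeR called none, so those called by DESeq2 are named), Amd2, Paox, Oaz1, Oaz2 and Azin2, and the 5 genes most like Smox, Amd1 or Odc1 by Pearson's r. Figures were drawn with matplotlib 3.10.9 in Python 3.11.15. Proteins of the members, sites of miR-1 and some pathway genes were not analysed here.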

Additional observations from a re-analysis of the deposited data

Results flagged for a closer look

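In 28 groups of 5 libraries (7 genes by 4 groups) 3 had a library whose gap to its neighbor exceeded the critical share of the range, 0.71, in Dixon's test, where about 1 in 20 is reached by chance. Amd1 in MOV mimic 5 was at 1390 CPM, with the next library at 390 and the lowest at 99.2 CPM (ratio 0.774). Sms in MOV control 5 was at 339 CPM, with the next at 167 and the lowest at 108 CPM (ratio 0.745). Azin1 in sham control 1 was at 49.5 CPM, with the next at 73.1 and the highest at 75.9 CPM (ratio 0.894). Sham control 1 also had the lowest fibroblast and leukocyte markers of its group, at 859 and 200 CPM.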

How the results depend on the processing

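The number of genes called after MOV in control-virus muscles was 1 in edgeR, and it was 388 with no filter on low counts, 913 in DESeq2, 36 with all 20 libraries in the fit and 0 to 426 with 1 library left out (426 without sham control 3 and 318 without MOV control 5). Of the 6 members tested, 0 were called there in edgeR, 1 with no filter (Amd1), 2 in DESeq2 (Amd1 and Azin1) and 0 to 1 with 1 library left out. In mimic-virus muscles 0 genes were called, against 1 with no filter, 223 in DESeq2, 3 with all 20 libraries and 0 to 101 with 1 left out (101 without MOV mimic 5), and no setting called a member. For the mimic in MOV, 0 became 3 in DESeq2 and 1 with all 20 libraries, and for the interaction 1 in DESeq2. The cause was not tested.

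Smox stayed at -2.17 to -1.71 and Amd1 at -2.22 to -1.72 after MOV in control-virus muscles with 1 library left out, and Azin1 at 0.56 to 0.91. Signs turned for estimates near 0. These were, after MOV in control-virus muscles, Odc1 (-0.01 with no filter, -0.07 to 0.12 with 1 left out), Srm (0.00 to 0.32) and Sms (-0.17 to 0.34), and in mimic-virus muscles Srm (0.04 without TMM, -0.30 to 0.10 with 1 left out) and Azin1 (-0.10 to 0.27). For the mimic in MOV they were Odc1 (-0.04 to 0.07), Srm (-0.26 to 0.13), Sms (-0.43 to 0.08) and Sat1 (-0.12 to 0.17). For the mimic in sham they were Amd1 (-0.27 to 0.31), Smox (-0.09 to 0.36) and Sat1 (-0.23 to 0.12), and for the interaction Sat1 (-0.06 to 0.31).

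Equal replicate numbers of left and right muscles correlated at 0.00939 to 0.874 in sham (mean 0.366, against -0.0732 for unequal numbers) and 0.0856 to 0.49 in MOV (mean 0.315, against -0.0741), as deviations from group means over 10545 genes. The lowest of each surgery was under 0.1, and 2 of 5 sham and 3 of 5 MOV control libraries correlated best with their own number, so the numbers were not taken as pairs, although the data leave it possible that some of them join the muscles of a mouse. With the replicate number as a block, 1 gene was called after MOV in control-virus muscles and 0 in the other comparisons, with 0 members. Sham and MOV muscles came from different mice. In comparisons of MOV with sham this block thus joined libraries that share only a number, and it was no pairing. With the block, Amd1 was at -1.85 (adjusted p = 0.153 in edgeR) and Azin1 at 0.75 (adjusted p = 0.142) after MOV in control-virus muscles. For the mimic in sham, Odc1 was at 0.26 and Azin1 at 0.28 (adjusted p = 1 for each), and in MOV Amd1 was at 1.03 (adjusted p = 0.654).

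For the mimic in MOV, the interval of Amd1 excluded 0 before adjustment over 15220 genes and its adjusted p did not pass, and Amd1 varied 14-fold within MOV mimic through MOV mimic 5.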
